A study of Arabidopsis thaliana with 6 samples.

Results

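The core histone genes of Arabidopsis thaliana were compared between seeds of wild type (WT) plants and of plants carrying the DD25::IaaH transgene. The set holds 36 of the 33323 loci measured, chosen by locus identifier as the genes of histones H3.1, H3.3, CENH3, H4, H2A with its H2A.X, H2A.W and H2A.Z variants, and H2B. Of these, 23 are replication-linked (H3.1, H4, canonical H2A and canonical H2B), 6 are replacement histones (H3.3 and H2A.Z) and 7 are other variants (CENH3, H2A.X, H2A.W and the H2B gene AT1G08170). All seeds were of the Col-0 accession, came from hand self-pollination and were dissected whole from the silique 6 days after pollination. The WT group carried no transgene. The other group carried IaaH, a bacterial hydrolase that releases auxin from indole-3-acetamide, behind the DD25 promoter, which is known as a promoter of the central cell and early endosperm. The number of independent transgenic lines is not given in the sources used here, and the level of IaaH itself was not analysed here. Each genotype had 3 libraries of polyadenylated RNA, which the series' design text calls biological replicates, in a study of auxin and the formation of cells in the endosperm.

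Core histones form the protein spool around which DNA is wound, with H2A, H2B, H3 and H4 each present as a pair. Replication-linked genes, present in many copies, are transcribed mainly in S phase and supply the histones that package newly copied DNA. Replacement variants are made through the cell cycle and enter chromatin without replication, H3.3 mostly over transcribed genes and H2A.Z at their first nucleosomes. In plants, unlike in most animal cells, replication-linked histone messages are polyadenylated, so both kinds pass through poly(A) selection. Seeds at this stage combine a dividing embryo, an endosperm and a maternal seed coat. In such bulk samples, fewer cells of a type and less RNA per cell cannot be told apart.

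Library depth, rebuilt from the steps of the deposited RPKM values (reads per kilobase of gene and per M, or mega, mapped reads), ranged from 6.50 to 17.8 M reads. A tested histone gene had between 83 and 9809 reads in a library, with a median of 1623. WT 1 and WT 2 stood apart: 82.1% and 63.8% of 3911 annotated pseudogenes had reads in them, against 21.3% to 32.9% in the other libraries. Of the marker genes for the labelled tissue, all 5 embryo genes, 4 of 6 endosperm genes and all 4 seed coat genes had at least 0.5 RPKM in every library. The summed level of the endosperm markers was 36.4 to 46.6 RPKM in WT and 101 to 139 RPKM in DD25::IaaH, with PHE1, MINI3 and FWA called higher. Most of that difference was PHE1, at 3.50 and 76.5 RPKM, and the other 5 endosperm markers overlapped, at 33.8 to 41.7 RPKM against 39.9 to 43.6 RPKM. Of these, ZOU, at 33.5 and 28.8 RPKM, IKU2 and MEA did not pass, with log2 fold changes of -0.22, -0.29 and 0.088. The seed coat markers summed to 1551 to 2398 RPKM against 2669 to 3047 RPKM, with BAN and TT12 called higher, while TT4, at 1184 and 1854 RPKM, and GL2, at 149 and 147 RPKM, did not pass. The 5 embryo markers summed to 206 to 218 RPKM against 166 to 199 RPKM, with WOX9 called lower. Most of that level was LEC1, at 159 and 148 RPKM, with a log2 fold change of -0.10. All 5 values were negative, and STM, at -0.48, and SCR, at -0.35, also lay wholly below WT but did not pass. Of 3 silique wall and pollen markers, IND was below the filter and the summed level overlapped, at 10.5 to 16.0 RPKM against 11.9 to 13.9 RPKM. The part of these shifts in the histone results was not tested.

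In DD25::IaaH seeds 5 core histone genes were lower, none was higher, and 30 did not pass the test. The 5 were the H4 genes AT5G59690 and AT3G53730, the H2B gene HTB2, the canonical H2A gene HTA2 and the H2A.W gene HTA7. AT5G59690 stood out, with a mean 5.19-fold lower. The call of HTA7 was lost under 9 of 18 alternatives, and with WT 1 and WT 2 both left out 2 members, AT5G59690 and HTA2, were called lower. The members tested were the 35 with a mean of at least 0.5 RPKM, and a call is an adjusted p under 0.05 in limma's two-sided test over 20880 genes. The lower members were 14.3% of those tested, against 6.72% of all tested genes called lower, and 0% were higher, against 8.25% of all tested genes. At an unadjusted p under 0.05, limma found 6 members lower and 1 higher, where 13.1% and 15.7% of all tested genes were. Limma's voom on rebuilt reads called 6 lower and 1 higher, where it called 7.19% and 9.16% of all genes. The DD25::IaaH libraries lay wholly below the WT libraries for 7 members and wholly above for 1, where 14.9% and 18.4% of all tested genes did so. The log2 fold change was negative for 26 of 35 members (74.3%), against 46.5% of all tested genes. The medians were -0.11 and 0.03. Members are not independent, as the 8 H4 genes ranked alike across the DD25::IaaH libraries.

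**Figure D1:**
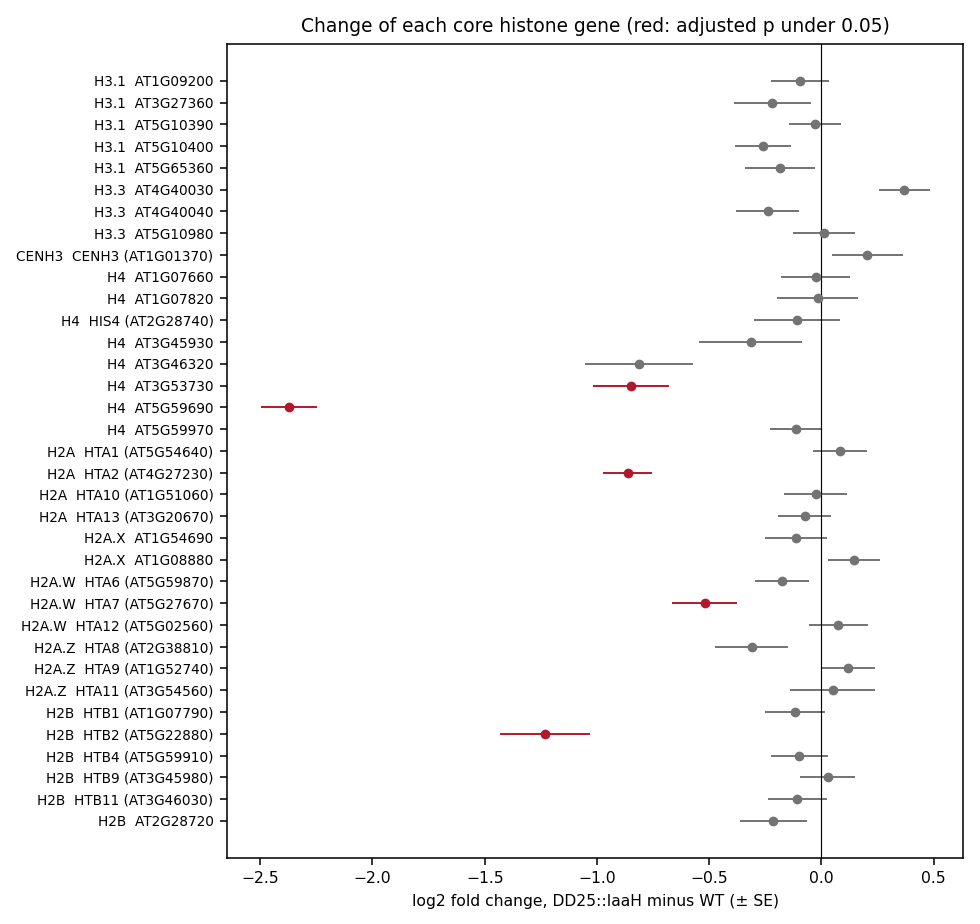
Log2 fold change (DD25::IaaH minus WT, horizontal axis) of the 35 tested core histone genes, with SE bars and 1 row per gene, ordered by class. The 5 genes with an adjusted p under 0.05, in red, all lie left of 0, and AT5G59690 lies farthest left at -2.37.

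Histone H4 is encoded by 8 genes in the set, and 2 of them fell. AT5G59690 was at 749.9, 727 and 656 RPKM in WT 1, 2 and 3, and at 123, 144 and 144 RPKM in DD25::IaaH 1, 2 and 3. Every DD25::IaaH library was thus far below every WT library, and replicates of a genotype lay close together. In WT it led all members by mean level, although HTB2, at 658 ± 118 RPKM, and HTB4, at 649 ± 48.2 RPKM, were within the spread of the libraries. The mean fell from 711 ± 48.7 to 137 ± 12.4 RPKM (SD, n = 3), for a log2 fold change of -2.37 ± 0.12 (SE) at a limma adjusted p of 5.49e-06. AT3G53730 had 329, 370.2 and 402 RPKM in WT and 164, 202 and 253 in DD25::IaaH. The groups did not overlap here either, and the fall, from 367 ± 36.7 to 206 ± 44.9 RPKM, gave a log2 fold change of -0.85 ± 0.17 (SE) at an adjusted p of 0.0109. When WT 1 and WT 2 were both left out, the adjusted p of AT3G53730 was 0.171, and over all alternatives it ranged from 0.00451 to 0.171.

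The other 6 H4 genes did not pass. AT3G46320, singled out after its values were seen, was at 499.5, 349 and 256 RPKM in WT and 171, 192 and 251 in DD25::IaaH. Its groups were separate, but the WT libraries spread widely, and the log2 fold change of -0.81 ± 0.24 (SE) had an adjusted p of 0.0550. It passed without WT 3, at 0.00768, and in voom, at 0.0298, in a range of 0.00768 to 0.555 over the alternatives. The remaining log2 fold changes ran from -0.32 for AT3G45930 to -0.017 for AT1G07820, so all 8 H4 genes were on the negative side. Without WT 1, 3 of these small values turned positive, at 0.066 for AT1G07660, 0.10 for AT1G07820 and 0.071 for HIS4 (AT2G28740). The libraries also moved as a set: DD25::IaaH 1 was the lowest and DD25::IaaH 3 the highest of its genotype for all 8 genes, and WT 1 was the highest of its genotype for 7 of 8.

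**Figure D2:**
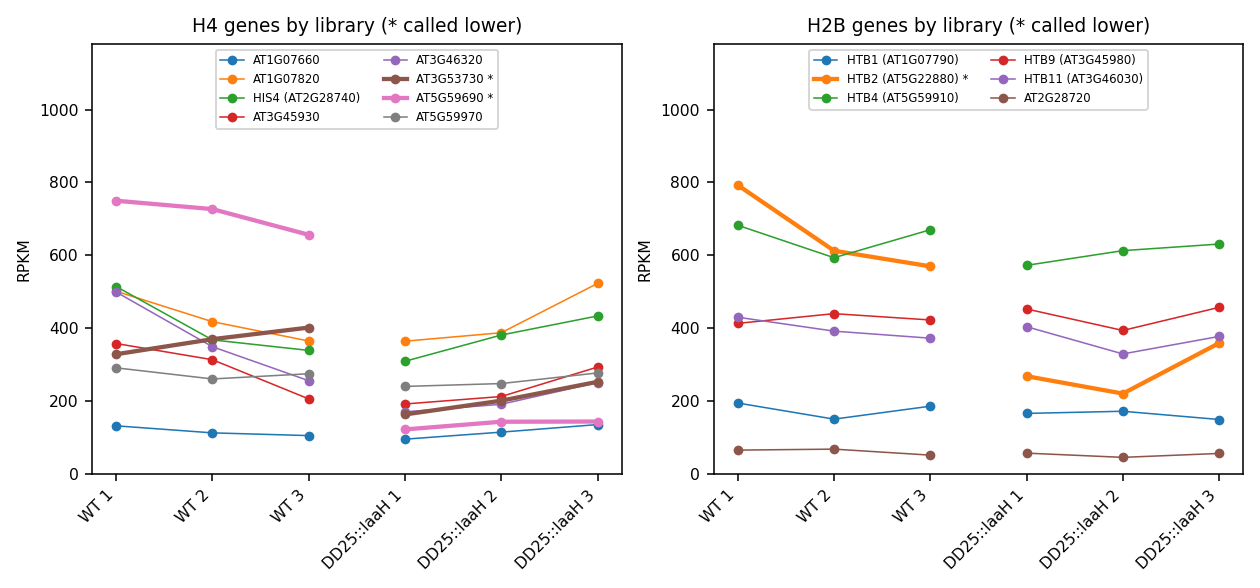
RPKM of the 8 H4 genes (left) and of the 6 canonical H2B genes (right) in each library; the lines only join the points of a gene within a genotype, and heavy lines with an asterisk mark genes called lower. AT5G59690 goes from the top of the H4 panel in WT, at 656 to 749.9 RPKM, to near its bottom in DD25::IaaH, and HTB2 from the upper to the middle levels of H2B.

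As the H4 genes are close in sequence, reads could be split between copies, and the counting of reads with several matches is not given in the sources used here. The coding sequence of AT5G59690 was 97.1% identical to that of AT5G59970, its closest copy, over 312 bases in the RefSeq annotation of TAIR10.1. The longest stretch the pair shared was 95 bases, below the read length of 125 bases, and no 125-base window of AT5G59690 occurred in another annotated gene. AT5G59970 had 292, 261 and 275 RPKM in WT and 241, 249 and 278 in DD25::IaaH. Its groups overlapped, and the log2 fold change was -0.11 ± 0.12 (SE) at an adjusted p of 0.586. Windows of 125 bases were shared only between AT1G07660 and AT1G07820 (2.17% and 1.52% of their windows) and between AT3G45930 and AT3G46320 (6.32% and 6.92%). For the other 32 members the share was 0%. Genes that overlap a member were left out of these counts. Such overlaps were annotated for AT3G27360, HTA13, HTA3, HTA12, HTA9 and HTB9, and for none of the 5 lower genes.

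The promoters of this pair are shown because the copies are close in coding sequence but differ in their values between genotypes. The windows run from 250 bases before to 50 bases after the annotated start, 5′ to 3′ on the gene's strand. They come from the RefSeq genome TAIR10.1 (the deposited table has no coordinates, and the submitters' processing notes name TAIR10). AT5G59690 is on the plus strand at chr5:24051224-24051523 and AT5G59970 on the minus strand at chr5:24146680-24146979. Capitals mark exact matches, on either strand, to motifs known from plant histone promoters: the octamer CGCGGATC, the hexamer ACGTCA, and the E2F-type sites TTTCCCGC, TTTGGCGC, TTTGCCGC and TTTCGCGC. E2F factors drive S-phase genes.
AT5G59690: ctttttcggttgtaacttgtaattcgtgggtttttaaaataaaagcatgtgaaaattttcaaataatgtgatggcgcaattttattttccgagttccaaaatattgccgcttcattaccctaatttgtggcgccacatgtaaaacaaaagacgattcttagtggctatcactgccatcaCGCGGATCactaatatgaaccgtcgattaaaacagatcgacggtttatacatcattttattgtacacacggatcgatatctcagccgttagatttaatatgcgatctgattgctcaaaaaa
AT5G59970: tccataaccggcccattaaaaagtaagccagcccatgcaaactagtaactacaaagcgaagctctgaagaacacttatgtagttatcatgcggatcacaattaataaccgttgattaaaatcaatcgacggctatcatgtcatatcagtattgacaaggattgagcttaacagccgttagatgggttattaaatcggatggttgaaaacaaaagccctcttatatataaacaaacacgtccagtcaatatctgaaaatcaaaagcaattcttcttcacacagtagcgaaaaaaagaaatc
AT5G59690 held 1 octamer, 71 bases upstream of the start, and AT5G59970 held no exact match to any of the motifs.

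Canonical H2B has 6 genes in the set, of which HTB2 alone fell. HTB2 was at 793, 613 and 569.9 RPKM in WT and 269, 221 and 359 in DD25::IaaH. The highest DD25::IaaH library stayed below the lowest WT library, although both genotypes spread widely. The mean fell from 658 ± 118 to 283 ± 70.3 RPKM, for a log2 fold change of -1.23 ± 0.20 (SE) at an adjusted p of 0.00382 in limma. When WT 1 and WT 2 were both left out, the adjusted p was 0.188, the highest of a range that began at 0.00103. AT2G28720, the next by adjusted p and the least abundant canonical H2B gene, had 66.0, 68.7 and 52.3 RPKM in WT and 57.7, 46.1 and 56.9 in DD25::IaaH. These overlap, with a log2 fold change of -0.21 ± 0.15 (SE) at an adjusted p of 0.386. HTB4, at 649 and 606 RPKM, HTB9, at 426 and 435 RPKM, HTB11, at 399 and 371 RPKM, and HTB1, at 178 and 163 RPKM in WT and DD25::IaaH, had log2 fold changes between -0.12 and 0.028.

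The promoter of HTB2 is shown beside that of HTB9, an H2B gene of high and similar level in both genotypes, with the same marks. HTB2 is on the minus strand at chr5:7652665-7652964 and HTB9 on the minus strand at chr3:16897964-16898263 (TAIR10.1).
HTB2: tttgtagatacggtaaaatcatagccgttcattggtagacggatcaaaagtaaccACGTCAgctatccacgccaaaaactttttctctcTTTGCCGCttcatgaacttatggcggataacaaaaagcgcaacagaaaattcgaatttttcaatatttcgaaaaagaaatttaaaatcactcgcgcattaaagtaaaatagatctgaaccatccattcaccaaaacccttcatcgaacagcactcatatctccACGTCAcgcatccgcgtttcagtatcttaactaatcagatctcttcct
HTB9: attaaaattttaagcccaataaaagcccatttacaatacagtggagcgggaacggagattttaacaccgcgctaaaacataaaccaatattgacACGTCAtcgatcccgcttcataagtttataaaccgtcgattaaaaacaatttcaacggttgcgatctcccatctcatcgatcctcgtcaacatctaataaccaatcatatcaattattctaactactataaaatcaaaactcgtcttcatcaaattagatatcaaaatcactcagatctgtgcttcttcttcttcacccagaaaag
HTB2 held the hexamer 195 bases upstream and 3 bases downstream of the start and an E2F-type site 161 bases upstream. HTB9 held the hexamer 156 bases upstream.

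The motifs were matched over all members to see what the genes share in sequence. The octamer was in 9 of 36 member promoters (25%), against 0.146% of 27443 promoters of protein-coding genes. It was in 3 of 5 H3.1, 2 of 8 H4 and 2 of 4 canonical H2A genes, in the H3.3 gene AT4G40040 and in the H2A.W gene HTA6. The hexamer was in 10 members (27.8%), against 9.19% of all promoters, and all 6 canonical H2B genes held it. E2F-type sites were in 3 members (8.33%), against 1.76% of all. No matches of different motifs overlapped, and 20 of 36 members held at least 1 motif. Of the 5 lower genes, AT5G59690 alone held the octamer and HTB2 alone held the hexamer or an E2F-type site, while AT3G53730, HTA2 and HTA7 held no match. Gene structure also followed class: all 5 H3.1 genes, all 6 canonical H2B genes and 7 of 8 H4 genes have 1 exon in the RefSeq annotation. The H3.3 genes have 3 or 4 exons, the canonical H2A genes 2 each, and CENH3 has 10.

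Canonical H2A has 4 genes in the set, and HTA2 was the 1 that fell. It had 127, 138 and 148 RPKM in WT and 76.8, 74.2 and 74.7 in DD25::IaaH, where the libraries were nearly level. With no overlap between the groups, the mean fell from 138 ± 10.5 to 75.2 ± 1.39 RPKM, for a log2 fold change of -0.86 ± 0.11 (SE) at a limma adjusted p of 0.000829. HTA1, known as RAT5 for its part in transformation by Agrobacterium, had 106, 95.5 and 105 RPKM in WT and 118, 96.2 and 112 in DD25::IaaH. The groups overlapped, and the log2 fold change was 0.084 ± 0.12 (SE) at an adjusted p of 0.705. HTA10, the most abundant of the 4 at 327 RPKM in WT and 323 in DD25::IaaH, and HTA13, at 162 and 154 RPKM, did not pass and had log2 fold changes of -0.026 and -0.075.

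None of the 5 H3.1 genes passed, and all had small negative log2 fold changes, from -0.26 to -0.029. AT5G10400, first by adjusted p, was at 333, 280.2 and 298 RPKM in WT and 234, 249.96 and 277 in DD25::IaaH. Its groups just missed each other, with a log2 fold change of -0.26 ± 0.13 (SE) at an adjusted p of 0.214. AT3G27360 had 246, 199.6 and 189 RPKM in WT and 149.7, 174 and 226 in DD25::IaaH, which overlap, at an adjusted p of 0.457. AT1G09200 and AT5G65360 were at 336 and 300.5 RPKM in WT and at 313 and 265 RPKM in DD25::IaaH. AT5G10390, the least abundant, was at 131 and 128 RPKM, and its log2 fold change turned positive without WT 1, at 0.011.

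The replacement histones held no called gene among 6, where 6.72% of all tested genes were lower and 8.25% higher. With so few genes, the lack of calls does not set these histones apart. The H3.3 gene AT4G40030 came nearest, with 207, 223 and 242 RPKM in WT and 286, 288 and 292 in DD25::IaaH. It was the 1 member whose DD25::IaaH libraries all lay above the WT libraries, and its log2 fold change was 0.37 ± 0.11 (SE) at an adjusted p of 0.0621. It passed without WT 3, at 0.0260, and in voom, at 0.0494, where the alternatives ranged from 0.0260 to 0.361. AT4G40040, the most abundant H3.3 gene, was at 517, 489 and 432 RPKM in WT and 431, 354 and 435 in DD25::IaaH. These overlap, and the log2 fold change pointed the other way, at -0.24 ± 0.14 (SE), at an adjusted p of 0.301. The third H3.3 gene, AT5G10980, was at 336 and 340.5 RPKM in WT and DD25::IaaH. Its log2 fold change of 0.012 became negative with median-of-ratios and quantile scaling.

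Of the H2A.Z genes, HTA8 had 125, 132 and 92.5 RPKM in WT and 81.4, 92.0 and 106 in DD25::IaaH. The groups overlapped, with a log2 fold change of -0.31 ± 0.16 (SE) at an adjusted p of 0.252. Without WT 3 it passed, at 0.0436, its lowest adjusted p over the alternatives, and without WT 1 and WT 2 its log2 fold change was 0.0021. HTA9 was at 249, 244 and 205 RPKM in WT and 248, 252 and 256 in DD25::IaaH, at an adjusted p of 0.570. HTA11, the most abundant of the 3, was at 389.8 ± 86.5 and 399 ± 57.2 RPKM (SD, n = 3). All 3 H2A.Z genes were lowest in WT 3 among the WT libraries.

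Among the other variants, HTA7 fell. It encodes H2A.W, the H2A form found in the heterochromatin of plants, and had 127, 130.0 and 112 RPKM in WT and 102, 72.7 and 83.9 in DD25::IaaH. The groups were separate, with a fall from 123 ± 9.89 to 86.2 ± 14.8 RPKM, for a log2 fold change of -0.52 ± 0.14 (SE) at an adjusted p of 0.0435. That call was lost under 9 of 18 alternatives, over which the adjusted p ranged from 0.0233 to 0.455. It was 0.132 with WT 1 left out, 0.147 with WT 2 left out, 0.135 with DD25::IaaH 2 left out and 0.121 with DD25::IaaH 3 left out. HTA6, the most abundant H2A.W gene, had 351, 313 and 378 RPKM in WT and 298, 309 and 313 in DD25::IaaH, at an adjusted p of 0.386. HTA12, at 34.8 and 36.6 RPKM in WT and DD25::IaaH, had a log2 fold change of 0.076.

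The H2A.X genes, whose product is phosphorylated at DNA breaks, did not pass. HTA5 was at 179, 194 and 179 RPKM in WT and 205, 186 and 220.2 in DD25::IaaH, and HTA3 was at 104, 86.1 and 115 RPKM in WT and 100.3, 94.95 and 85.7 in DD25::IaaH. Both overlapped between genotypes, with adjusted p of 0.457 and 0.645. CENH3 (HTR12), the H3 of centromeres and the least abundant tested member, had 10.4, 9.91 and 13.8 RPKM in WT and 12.8, 12.9 and 13.4 in DD25::IaaH. WT 3 was the highest of the 6 libraries, WT 1 and WT 2 the lowest, and the log2 fold change of 0.20 ± 0.16 (SE) had an adjusted p of 0.447. AT1G08170, the member below the filter, had 7 reads over the WT libraries, or 0.263 RPKM with an exact Poisson 95% interval of 0.106 to 0.541. In DD25::IaaH it had 2 reads, or 0.104 RPKM with an interval of 0.0125 to 0.374, so no difference was detectable at this depth. These intervals cover counting error only.

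**Figure D3:**
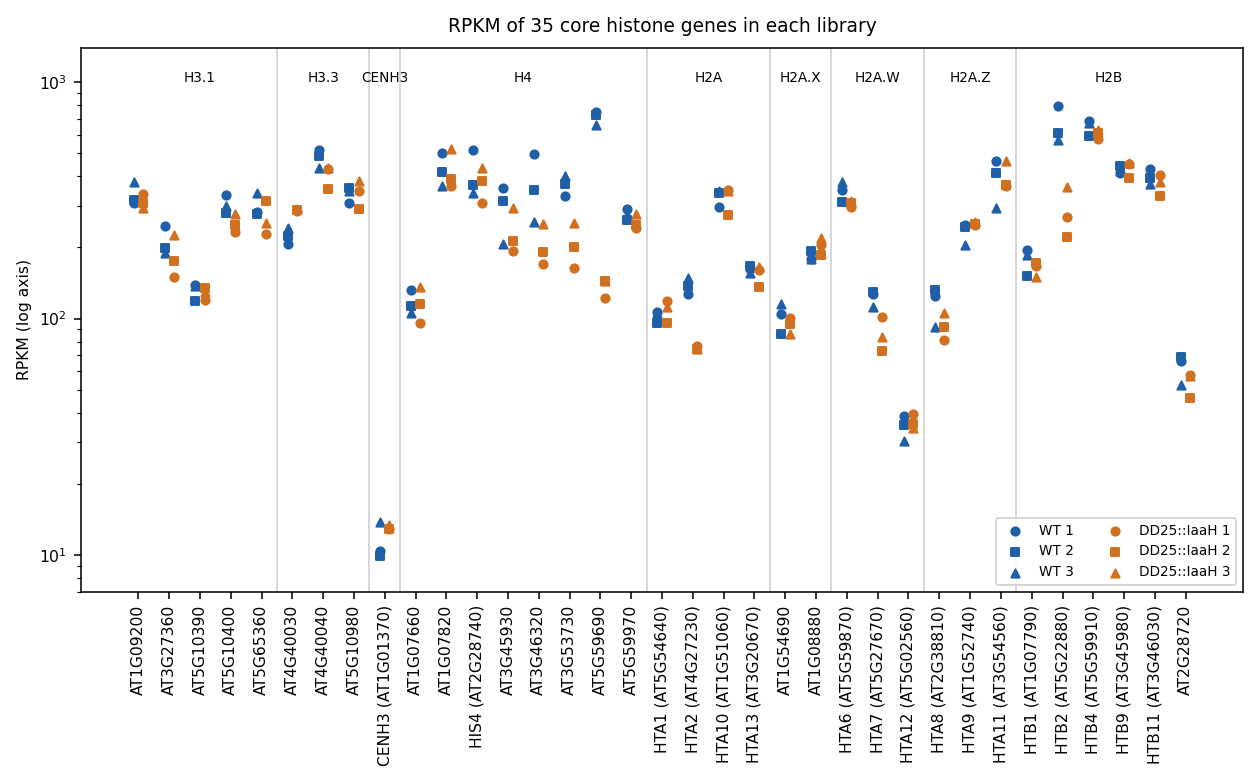
RPKM (vertical log axis) of the 35 tested core histone genes in each of the 6 libraries, grouped by class; blue marks WT, orange DD25::IaaH, and the marker shape gives the replicate. Levels run from 9.91 RPKM for CENH3 in WT 2 to 793 RPKM for HTB2 in WT 1, with most H4 and H2B genes near the top, and the blue and orange points of AT5G59690 lie farthest apart.

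The summed level set replication-linked against replacement genes. The 23 replication-linked genes summed to 7958, 7113 and 6984 RPKM in WT and 5356, 5425 and 6224 in DD25::IaaH. Every DD25::IaaH sum lay below every WT sum, and the means were 7352 ± 529 and 5668 ± 483 RPKM (SD, n = 3). The 6 replacement genes overlapped, at 1779 ± 145 and 1780.2 ± 146 RPKM. Sums over chosen genes are given as descriptions, without a test. Of the difference in the replication-linked sum, 56.4% lay in AT5G59690 and HTB2 alone.

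By class, the summed H4 level was 2969 ± 387 RPKM in WT and 1953 ± 332 in DD25::IaaH, without overlap. AT5G59690 held 56.5% of that difference, and the other 7 H4 genes overlapped, at 2258 ± 343 and 1816 ± 322 RPKM. The sum of the 6 canonical H2B genes in the set was 2371 ± 181 and 1911 ± 128 RPKM, also without overlap. HTB2 held 81.5% of that difference, and the other 5 canonical H2B genes overlapped, at 1713 ± 71.3 and 1628 ± 63.2 RPKM. This sum and the 81.5% leave out the H2B genes outside the set. Of these, AT3G53650 was at 125 and 63.2 RPKM and was called lower. AT2G37470, at 317 and 289 RPKM, AT3G09480, at 57.8 and 58.3 RPKM, and AT5G02570, at 8.42 and 14.7 RPKM, were not called. The H3.1 sum was separate by a small margin, at 1309, 1194 and 1346 RPKM in WT and 1067, 1185 and 1181 in DD25::IaaH. The locus AT2G01021 held 23.1% of summed RPKM in WT 2 and 30.6% in DD25::IaaH 2. No class sum was recomputed without that locus or under another scaling, so small margins between sums may not hold. Canonical H2A, at 729 ± 33.4 and 661 ± 70.0 RPKM, overlapped, as did H3.3, at 1039.5 ± 24.8 and 1036 ± 91.5 RPKM, and H2A.Z, at 739 ± 129.6 and 744 ± 72.2 RPKM. Separate sums were not limited to the replication-linked classes. H2A.W was at 505 ± 23.0 and 429 ± 11.0 RPKM without overlap. Leaving out HTA7 gave 382 ± 30.6 and 343 ± 5.24 RPKM, with a very small margin between the genotypes. The lowest WT value was 348.2 (WT 2) and the highest DD25::IaaH value 347.5 (DD25::IaaH 3), so that separation may not hold. The 7 other variants together, H2A.W among them, were at 802 ± 30.6 and 740.2 ± 24.8 RPKM. They too were separate by a small margin, with WT 2 at 769 and DD25::IaaH 1 at 758 RPKM. H2A.X, at 286 ± 7.60 and 298 ± 14.05 RPKM, overlapped.

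In 3 classes, 1 of the genes already called lower supplied a smaller share of the class in DD25::IaaH. AT5G59690 supplied 22.2, 24.9 and 25.2% of summed H4 RPKM in WT and 7.39, 7.64 and 6.24% in DD25::IaaH. Of the summed RPKM of the canonical H2B genes in the set, HTB2 supplied 27.6 ± 2.87% in WT and 14.7 ± 2.70% in DD25::IaaH (SD, n = 3). HTA2 supplied 18.9 ± 0.636% and 11.5 ± 1.15% of canonical H2A RPKM. H2B genes outside the set were left out. None of these shares overlapped between genotypes. The H3.1 share of summed H3.1 and H3.3 RPKM was 55.9, 52.8 and 56.9% in WT and 50.04, 55.9 and 51.6% in DD25::IaaH. These values overlapped, with means of 55.2 ± 2.14% and 52.5 ± 3.06%. The ratio of summed H4 to summed H3.1 and H3.3 RPKM was 1.28 ± 0.170 in WT and 0.893 ± 0.116 in DD25::IaaH, without overlap. That of canonical H2B to all H2A, each summed over the genes in the set, was 1.05 ± 0.0600 and 0.896 ± 0.00360, also without overlap. These ratios include AT5G59690 and HTB2, without which the H4 and H2B sums overlapped. The ratios were not computed without these genes, so they do not show a shift of the other genes.

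**Figure D4:**
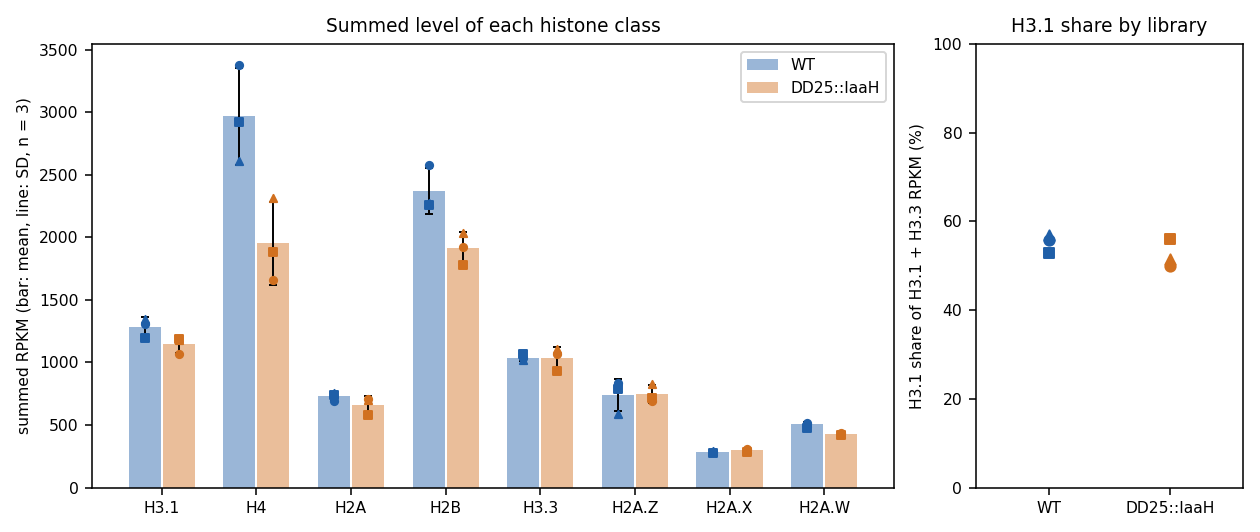
Left, summed RPKM of the genes of each histone class in the set, in WT (blue) and DD25::IaaH (orange). Bars are means, lines SD, n = 3, and points the libraries. Right, H3.1 share of summed H3.1 and H3.3 RPKM in each library, in percent. H4, H2B, H3.1 and H2A.W sums of deposited RPKM are separate between genotypes, H3.1 by a small margin. H2A, H3.3, H2A.Z and H2A.X sums overlap, and the H3.1 share overlaps between 50.04% and 56.9%.

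Position along the chromosomes was set beside the calls. Genes near-absent in DD25::IaaH (every WT library at 3 RPKM or more, all DD25::IaaH values under the lowest of WT divided by 15) span AT2G02360 to AT2G15292, AT3G16400 to AT3G61020, AT4G01593 to AT4G37320 and AT5G48412 to AT5G66053. The rule for these ranges was taken over from earlier work on these values. Within them 11.9% of the 7216 genes tested were lower and 8.74% higher, against 3.99% lower and 7.99% higher of the 13664 elsewhere. Near-absent genes lie inside by construction, so the contrast in lower genes is set in part by the rule. Of the 15 members inside, AT5G59690, AT3G53730 and HTA2 were lower, and of the 20 tested outside, HTB2 and HTA7 were. Among the 10 nearest tested neighbours, 5 on each side, 3 were lower and 0 higher at AT5G59690, and 1 was lower and 4 were higher at HTA2, opposite to HTA2 itself for those 4. At AT3G53730 and at HTB2, 1 neighbour was lower and 1 higher, and at HTA7 no neighbour was called. The part of position in the calls was not tested.

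The histone genes outside the set gave 1 call in each direction among 10 tested of 13, or 10% each. Of all tested genes, 6.72% were lower and 8.25% higher. The median log2 fold change of these histone genes was 0.03. AT1G75600, annotated as a histone H3, rose from 9.07 ± 6.59 to 83.3 ± 17.5 RPKM (SD, n = 3), for a log2 fold change of 3.34 ± 0.42 (SE) at a limma adjusted p of 0.000805. Its libraries were at 3.81, 6.94 and 16.5 RPKM in WT and 103, 77.7 and 69.3 in DD25::IaaH, far apart. AT3G53650, annotated as an H2B, fell from 125 ± 14.2 to 63.2 ± 7.13 RPKM, with a log2 fold change of -0.98 ± 0.14 (SE) at an adjusted p of 0.00149, and it lies inside the ranges. AT5G02570 and AT5G65350 followed, with log2 fold changes of 0.73 and -0.77 and adjusted p of 0.0573 and 0.202.

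Histone chaperones and exchange factors carry histones to DNA or swap variants. Of 24 such genes, 1 was lower (4.17%) and 0 were higher, against 6.72% and 8.25% of all tested genes. The lower gene was AT4G37210, annotated as a tetratricopeptide repeat protein, at 38.2 ± 0.966 and 24.8 ± 1.65 RPKM. Its log2 fold change was -0.62 ± 0.11 (SE) at a limma adjusted p of 0.00688. DDM1, a chromatin remodeller of heterochromatin, had a log2 fold change of -0.50 at an adjusted p of 0.114. The nucleosome assembly gene AT5G56950 had a log2 fold change of -0.37 and FAS2, a subunit of the chaperone that deposits H3.1, of 0.43, at adjusted p of 0.119 and 0.163. The median log2 fold change of this list was 0.09.

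Of 24 S-phase genes 3 were lower (12.5%) and 1 was higher (4.17%), against 6.72% and 8.25% of all tested genes. The median log2 fold change of the list was 0.07. RNR2A, a subunit of the enzyme that makes deoxyribonucleotides, fell from 19.1 ± 0.962 to 12.1 ± 0.993 RPKM, at an adjusted p of 0.0108. The helicase subunit MCM7 fell from 21.0 ± 3.09 to 14.2 ± 0.675 RPKM, at an adjusted p of 0.0371, and its partner CDC45 from 5.64 ± 0.440 to 3.39 ± 0.449 RPKM, at an adjusted p of 0.0416. ORC2, a subunit of the origin recognition complex, rose from 3.54 ± 1.19 to 6.90 ± 0.601 RPKM, at an adjusted p of 0.0385. The CDC45 call was lost when any 1 library was left out, at 0.0583 to 0.136. The MCM7 call was lost for any library but WT 2, at 0.0682 to 0.110, and the ORC2 call for any but WT 3, at 0.0725 to 0.129. The RNR2A call was lost without DD25::IaaH 1, at 0.0506. All 3 lower S-phase genes and AT4G37210 lie inside the locus ranges, as do 859 of the 1404 tested genes called lower. The summed S-phase level overlapped between genotypes, at 416 ± 34.3 and 407 ± 17.3 RPKM (SD, n = 3).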

How the data were processed

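RNA from whole seeds was measured in 3 WT and 3 DD25::IaaH libraries, grouped by their labels. The authors deposited 1 table of RPKM values for 33323 loci, with no column left unmapped (0). The submitters' processing notes list TopHat2 2.1.0 and TAIR10, and reads were paired and 125 bases long, per the labels' protocols. DESeq served for the authors' own test, per the labels' protocols, and that result was not analysed here. How reads were counted, by strand or with several matches, is not given in the sources used here, so overlapping and near-identical genes may share reads.

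A mean of 0.5 RPKM or more over the libraries admitted 20880 genes to the test, on log2(RPKM + 0.5), a scale that understates changes of low genes. It used limma 3.58.1 (R 4.3.3) with genotype as the only term and eBayes with a trend of variance on mean, two-sided, with Benjamini-Hochberg adjustment over all tested genes. RPKM values rise in steps of 1 read, and 31470 of 31475 loci above 0 gave whole reads within 0.01 reads. Depths came from these steps, and 3 reads on a gene of 1 kb stood for 0.169 to 0.462 RPKM. The locus AT2G01021 held 19.5% to 30.6% of summed RPKM. The fit was tested on simulated data. Exons, sequences and names came from the RefSeq annotation of TAIR10.1.

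The members, their classes and the other lists were chosen with earlier results of these data known. Named are all members, with values per library for called members and up to 2 of each class in order of adjusted p, and up to 4 genes of each other list. Alternatives changed the pseudocount, filter, scaling, variance model, covariates, unit, libraries and genes. P-values measure only the spread between these libraries. Same-numbered libraries did not deviate together (r of -0.080, -0.031 and -0.10 for numbers 1, 2 and 3), so the numbers do not pair them.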

Additional observations from a re-analysis of the deposited data

How the results depend on the processing

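The main test called 3127 genes, 5 members lower and 0 higher. Without WT 1 and WT 2 together, a fit in which the lone WT 3 is assumed to vary like the other group, 790 genes and 2 members (AT5G59690 and HTA2) were called. Limited to genes outside the locus ranges, 1434 genes and 1 member (HTB2) were called, since AT5G59690, AT3G53730 and HTA2 lie inside and were not tested. HTA7 then had an adjusted p of 0.0518. Voom called 1 member higher. Leaving out 1 library in turn gave 1914 to 4145 calls, 4 to 7 members lower and 0 to 1 higher. With the replicate number as a block 2429 genes and 4 members were called, HTA7 being lost (adjusted p 0.0794), and the numbers are shared labels only. Higher calls were 55.1% of all, but 67.7% outside the ranges, where no near-absent gene lies by construction, and 48.0% with quantile scaling. AT5G59690 and HTA2 kept their calls under all 17 alternatives that tested them, HTB2 under 17 of 18 and AT3G53730 under 16 of 17. The H3.1 share moved by less than 1 SD under each of its alternatives. Reversed log2 fold changes were all of genes not called. Leaving out 1 library in turn, the values ran from -0.10 to 0.019 for AT5G10390, from -0.076 to 0.12 for AT5G10980, from -0.15 to 0.10 for AT1G07660, from -0.18 to 0.10 for AT1G07820, from -0.23 to 0.071 for HIS4, from -0.094 to 0.088 for HTA10, from -0.13 to 0.013 for HTA13, from -0.020 to 0.16 for HTA12, from -0.14 to 0.19 for HTA11 and from -0.0097 to 0.10 for HTB9. Without WT 1 and WT 2 they were -0.029 for AT5G10980, -0.084 for CENH3, 0.11 for AT1G07660, 0.20 for AT1G07820, 0.13 for HIS4, 0.15 for AT3G45930, 0.0021 for HTA8 and 0.028 for AT2G28720. Median-of-ratios scaling gave -0.018 for AT5G10980 and -0.0016 for HTB9, and quantile scaling -0.0071 for AT5G10980. The causes of these changes were not tested. Depth limits the low AT1G08170 most.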
